A study of Arabidopsis thaliana with 12 samples.

Results

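The genes described here encode the linker histones and 2 classes of H2A variant of *Arabidopsis thaliana*. They were chosen by name and gene identifier and not by a rule on measured values, though with earlier results of these data known. Of 9 such genes, 8 had a row in the RNA table, which holds 16755 genes. The 3 linker histone genes are H1.1 (AT1G06760), H1.2 (AT2G30620) and H1.3 (AT2G18050). The H2A.W genes are HTA6 (AT5G59870) and HTA7 (AT5G27670), and the H2A.Z genes are HTA8 (AT2G38810), HTA9 (AT1G52740) and HTA11 (AT3G54560). The RNA level of HTA12 (AT5G02560), the other H2A.W gene, was not analysed here.

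The nucleosome is the unit in which DNA is wrapped around core histones. Linker histone H1 binds where the DNA enters and leaves it and compacts chromatin, and in *Arabidopsis* it restrains access of DNA methyltransferases to heterochromatin. H2A variants replace canonical H2A: H2A.W marks heterochromatin and transposons, H2A.Z sits near the starts and along the bodies of genes and is largely excluded from methylated DNA, and H2A.X is phosphorylated at DNA breaks. H1.1 and H1.2 are the main linker histones of growing tissue, while H1.3 is a shorter, stress-inducible form also made in guard cells.

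The study concerned RNA-directed DNA methylation, in which ARGONAUTE4 (AGO4), guided by small RNAs, meets transcripts of RNA polymerase V and brings methylation in the CHH context (H is any base but G). Its samples were Col-0 wild type, *nrpe1* (nrpd1b-11, lacking the largest subunit of polymerase V) and *ago4*, whose ago4-1 allele had been crossed into Col-0, with 1 allele per mutant. All came from seedlings grown in long days, for 2 to 3 weeks by the labels, and each genotype had 3 Hi-C libraries. Hi-C cuts and religates crosslinked chromatin, which joins DNA pieces that were near each other. Total RNA depleted of ribosomal RNA was sequenced from 3 *ago4* replicates beside Col-0. The *ago4* line may carry a segment of its donor around AGO4 on chromosome 2, where H1.2, H1.3 and HTA8 also lie, 1.50 Mb, 3.69 Mb and 4.68 Mb from AGO4. An effect of such a segment and of the allele cannot be told apart.

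Each gene of the RNA table had 1 mean log2 CPM (CPM is the count scaled to library size) which was taken to be the mean over the *ago4* and Col-0 libraries of the comparison, since the table does not name its libraries. The Col-0 RNA libraries belong to an earlier dataset, handled in parallel by the study's methods, and are not among the samples described here. The level therefore has no spread, none of its differences was tested, and neighbours in the order of levels cannot be separated by replicate error. Seedling RNA holds many cell types, so fewer cells of a type and less RNA per cell cannot be told apart. The 3 green shoot markers lay between 8.65 log2 CPM for LHCB2.1 and 10.6 for RBCS1A, the small subunit of Rubisco. None of 3 root markers (CASP1, EXPA7, NRT2.1) and none of 3 seed and flower markers (SESA1, CRU1, AP3) had a row.

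Promoter sequence is shown first for the members that share a histone promoter element. The OCT motif, CGCGGATC, is an octamer known from plant histone promoters. It was searched on both strands from 250 bases before to 50 after the RefSeq start of transcription (TAIR10.1). It was present in 2 of 8 members, H1.1 and HTA6, against 30 of 16594 promoters of the table (0.181%). Of those 30, 10 belong to genes of linker or core histones. These are H1.1, HTA6, the canonical H2A genes HTA10 and HTA13, and 6 genes annotated only as histone superfamily proteins. The 30-base windows below run 5′ to 3′ on the strand of each gene, with the octamer or its reverse complement in capitals.
H1.1, chr1:2077777-2077806, minus strand: aaaagagtagcGATCCGCGtagtcattgtt
HTA6, chr5:24116318-24116347, minus strand: atacatagtcaCGCGGATCgtgctttattt
HTA10 distal, chr1:18926726-18926755, plus strand: attcactctgaCGCGGATCctgaatctcga
HTA10 proximal, chr1:18926790-18926819, plus strand: tgataaacagcGATCCGCGtagtttcttct
HTA13, chr3:7229311-7229340, plus strand: gcagtaacatcGATCCGCGtgattgtttat

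In H1.1 the octamer lay on the opposite strand 28 bases before the start, and in HTA6 on the same strand 116 bases before it. HTA10 held it in both orientations, 74 and 10 bases before the start, and HTA13 held the reverse complement 68 bases before it. A match is a description of letters and not a binding site. The whole 250 bases before the starts of H1.1 and HTA6, which overlap no annotated gene, place the octamer in context.
H1.1, chr1:2077768-2078017, minus strand: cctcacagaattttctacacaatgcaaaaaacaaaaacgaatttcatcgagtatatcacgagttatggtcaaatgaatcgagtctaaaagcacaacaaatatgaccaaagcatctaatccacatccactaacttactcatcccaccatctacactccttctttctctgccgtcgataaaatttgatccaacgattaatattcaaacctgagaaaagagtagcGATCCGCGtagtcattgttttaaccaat
HTA6, chr5:24116221-24116470, minus strand: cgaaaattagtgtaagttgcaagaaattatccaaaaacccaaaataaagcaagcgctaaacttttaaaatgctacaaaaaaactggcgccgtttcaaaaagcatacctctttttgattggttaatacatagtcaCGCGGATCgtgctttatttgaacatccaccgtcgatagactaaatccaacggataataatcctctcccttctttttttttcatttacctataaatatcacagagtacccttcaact

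The core of the abscisic acid response element (ABRE), ACGTG, was present in 2 of 8 members, H1.3 and HTA7, against 27.0% of all promoters. The copy of H1.3 did not lie wholly before its start. The histone hexamer ACGTCA was in none of the 8, against 9.76% of promoters. The E2F cores TTTCCCGC and TTTGGCGC, elements of S-phase genes, were also in none, against 0.874% and 0.615%. None of these motifs contains another in full.

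Linker histones were unequal in RNA level. H1.1 had 6.89 log2 CPM, H1.2 had 6.69 and H1.3 had 1.71, which placed H1.1 and H1.2 above 97.5% and 97.0% of the genes of the table and H1.3 above 25.3%. The median gene had 2.87 log2 CPM. To compare genes, each level was turned into CPM and divided by the length of the coding sequence. H1.1 then had 143.9 CPM per kb, H1.2 had 125.5 and H1.3 had 6.50, while the median protein-coding gene had 6.18. H1.1 was thus 22.1 times and H1.2 19.3 times the level of H1.3. H1.3 lay close to the middle of the protein-coding genes on this scale, above 51.8% of them. Per kb of mRNA it had 3.41 CPM, and its percentile on that scale was not computed. On that scale H1.1 was 30.1 times and H1.2 18.2 times its level. Without division by length the ratios were 36.2 and 31.5.

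H1.1 and H1.2 differed little from each other per kb of coding length, at a ratio of 1.15. Per kb of gene span the ratio was 1.59 and per kb of mRNA it was 1.65, so its size depends on the length used. Of the summed linker histone level per kb of coding length, H1.1 made up 52.1%, H1.2 45.5% and H1.3 2.35%. Their coding sequences are 825, 822 and 504 bp long, for 274, 273 and 167 residues, and each gene has 2 exons. H1.1 lies at chr1:2076504-2077767 on the minus strand. H1.2 lies at chr2:13044931-13046682 and H1.3 at chr2:7845923-7847031, both on the plus strand.

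**Figure D1:**
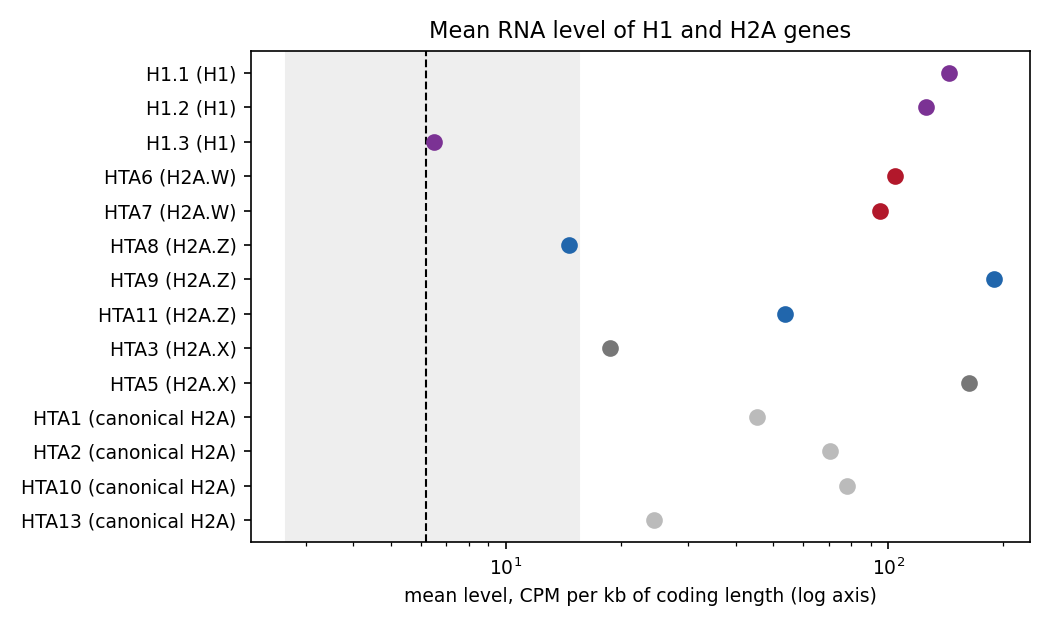
Each point is the mean RNA level of 1 gene in the RNA table, in CPM per kb of coding length on a log axis, coloured by class. The grey band spans the quartiles of all protein-coding genes (2.67 to 15.5) and the dashed line their median (6.18). H1.3 and HTA8 lie inside the band and the other 6 members to its right.

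The heterochromatin variant H2A.W was represented by HTA6 and HTA7, at nearly equal levels per kb of coding length. HTA6 had 5.56 log2 CPM and HTA7 had 5.43, above 92.0% and 91.1% of genes. Both have a coding sequence of 453 bp (150 residues) in 2 exons, and their levels per kb were 104.3 and 95.1 CPM. HTA6 thus supplied 52.3% of the H2A.W level measured and HTA7 47.7%, without HTA12. Per kb of mRNA the shares were 57.1% and 42.9%, so how close they are depends on the length used. HTA6 lies at chr5:24115354-24116220 and HTA7 at chr5:9792509-9793560, both on the minus strand. HTA12, with a coding sequence of 534 bp and 177 residues, lies at chr5:575225-577216 on the plus strand.

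H2A.Z genes spanned a wide range, and HTA9 led them. HTA9 had 6.26 log2 CPM, HTA11 had 4.46 and HTA8 had 2.59, above 95.5%, 81.3% and 43.8% of genes. Per kb of coding length HTA9 had 189.5 CPM, the highest of the 8 members, HTA11 had 53.7 and HTA8 had 14.7. HTA9 was 3.53 times HTA11 and 12.9 times HTA8, and HTA11 was 3.66 times HTA8. HTA9 made up 73.5% of the H2A.Z level, HTA11 20.8% and HTA8 5.69%. Per kb of gene span HTA9 was 4.42 times HTA11 and 17.4 times HTA8. The coding sequences have nearly the same length, 405 bp in HTA9 and 411 bp in HTA8 and HTA11, so coding length has little part in this order. HTA9 lies at chr1:19645236-19646485 (plus strand, 2 exons), HTA11 at chr3:20196140-20197726 (plus strand, 3 exons) and HTA8 at chr2:16219220-16220928 (minus strand, 2 exons).

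In order of level per kb of coding length, the members ran HTA9, H1.1, H1.2, HTA6, HTA7, HTA11, HTA8 and H1.3. The last 5 places were the same per kb of gene span, per kb of mRNA and without division by length, while H1.1 took the place of HTA9 at the top under each of these. The 8 members summed to 420.3 CPM. Their median was 5.50 log2 CPM, 6.19 times the level of the median gene, and 6 of 8 lay above the median gene.

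**Figure D2:**
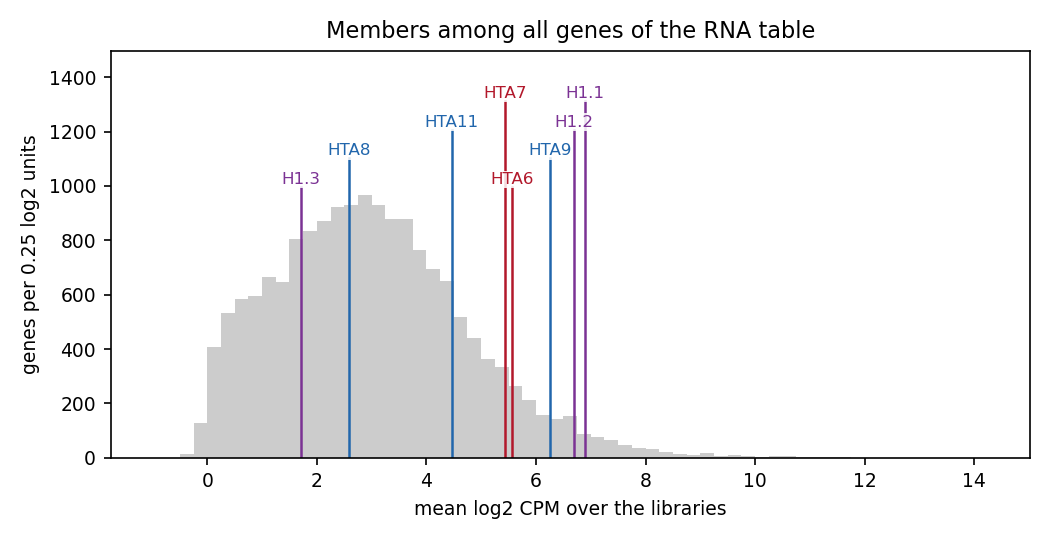
The grey histogram counts the 16755 genes of the RNA table by mean log2 CPM, in bins of 0.25. Lines mark the 8 members (H1 in purple, H2A.W in red, H2A.Z in blue). H1.3 at 1.71 and HTA8 at 2.59 stand left of the median gene (2.87), and H1.1 at 6.89 is the member farthest right.

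The other H2A genes give these levels a scale. Canonical H2A, the form deposited mainly at replication, had a median of 4.48 log2 CPM over 4 of 4 genes, from 3.28 for HTA13 to 4.96 for HTA10. The H2A.X genes HTA5 and HTA3 had 6.12 and 3.01 log2 CPM. Per kb of coding length, HTA5 supplied 89.7% of the H2A.X level, so H2A.X, like H2A.Z, was led by 1 gene. Of the level summed over the 11 of 13 H2A genes measured, 856.8 CPM per kb, H2A.Z made up 30.1%, canonical H2A 25.5%, H2A.W 23.3% and H2A.X 21.2%. The order of H2A.W and H2A.Z turned with the length used: per kb of gene span H2A.W had 29.4% and H2A.Z 24.3%. Per kb of mRNA the shares were 25.9% and 29.9%. HTA12 and HTA4, an H2A.Z gene, are not in these sums.

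Genes that act on the variants had a lower median level than the members. All 12 genes listed as acting on H2A.Z had a row, among them the subunits of the SWR1 remodelling complex. The 12 were not split by whether they add or remove H2A.Z, and 11 lay above the median gene. Their median was 3.73 log2 CPM and 9.06 CPM per kb of coding length. ARP6, an actin-related SWR1 subunit, was lowest at 2.83 log2 CPM. NRP1, a histone chaperone, was highest at 5.73. DDM1, the remodeller that places H2A.W and opens H1-rich heterochromatin to methylation, had 1.84 log2 CPM and 1.56 CPM per kb, above 27.7% of genes by log2 CPM. The 13 replication and cell cycle genes had a median of 3.31 log2 CPM and 4.64 CPM per kb, between 2.08 for CDKB2;2, a mitotic kinase, and 4.43 for KNOLLE, a syntaxin of cell division. The median member had 99.7 CPM per kb. The distance between members and these genes depends on the length used. Per kb of mRNA, HTA9 fell from 189.5 to 91.1 CPM, and DDM1 from 1.56 to 1.29. Medians per kb of mRNA were not computed.

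Genes that share the settings in which H1.3 is known were also measured. Of 5 water stress genes 4 had a row, with a median of 6.04 log2 CPM, from RAB18, a dehydrin, at 3.93 to RD29A at 7.12. The 5 guard cell genes had a median of 2.80, from SLAC1, the anion channel of stomatal closure, at 1.04 to FAMA, a guard cell transcription factor, at 3.85. H1.3, at 1.71 log2 CPM, was below all 4 water stress genes and inside the range of the guard cell genes.

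Some members overlap other annotated genes, and whether the counting used strand is not given in the sources used here. H1.1 overlaps AT1G06750 by 2 bp and the long noncoding RNA AT1G04503, on the opposite strand, by 484 bp. H1.2 overlaps AT2G30630 by 21 bp, and HTA9 overlaps AT1G52750 by 21 bp. HTA12, whose RNA level was not analysed, overlaps AT5G02570, on the opposite strand, by 522 bp. Of these neighbours AT1G52750 alone had a row, at 1.04 log2 CPM. The RefSeq models used here may differ from those used for the counting, so a missing row is not a measured absence of RNA. No 50-base stretch of any member's joined exons recurred in the genome or in another H1 or H2A transcript. Of the stretches of HTA10 4.81% did, and of those of HTA13 6.18%. For a stretch across an exon junction, a single copy elsewhere in the genome was not counted.

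The Hi-C data bear on the members through their surroundings. Each of 6 lists, 1 per *ago4* and *nrpe1* library, names published *nrpe1* DMRs (short differentially methylated regions that lose CHH methylation in *nrpe1*) that took part in a chromatin interaction in that library. The lists hold 541 different DMRs in 978 entries. They give the DMR and not the other end, so a DMR near a gene is not a contact with that gene. A DMR counted as near where it lay within 50 kb of the gene on either side. DMR positions are as listed (TAIR10), and the first base may be off by 1.

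Of the 8 members, 4 (H1.2, H1.3, HTA9 and HTA11) had a listed DMR within 50 kb, against 26.8% of all genes. In the *ago4* lists these were 4 of 8 members, against 22.4% of genes, and in the *nrpe1* lists 2 of 8 (H1.2 and H1.3), against 13.1%. A DMR shared by all 3 *ago4* libraries and absent from every *nrpe1* list lay near 1 of 8 members, HTA9, against 3.89% of genes. With 8 members these counts are descriptions. No member had a listed DMR within 10 kb, where 6.07% of genes had one of *ago4* and 3.12% one of *nrpe1*. The nearest listed DMR lay at a median of 59.5 kb from the members and 133.1 kb from all genes (quartiles 45.3 and 335.8 kb).

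The DMR near HTA9, at chr1:19675403-19675817, lay 28.9 kb downstream of the gene, with 10 protein-coding genes between them, and overlapped the pseudogene AT1G52840. It was listed in *ago4* replicates 1, 2 and 3 and in no *nrpe1* replicate, as were 58 of the 541 DMRs. The *nrpe1* lists are shorter, with 50, 176 and 65 DMRs against 215, 265 and 207 in *ago4*. Absence from them therefore does not make a DMR specific to *ago4*. It is 415 bp long with a GC content of 36.1%, and holds no site of *Dpn*II (GATC), the enzyme that cut the chromatin. The 300 bases around its middle, chr1:19675460-19675759, are shown on the plus strand, since this was the DMR near a member that recurred in every *ago4* list.
HTA9 DMR: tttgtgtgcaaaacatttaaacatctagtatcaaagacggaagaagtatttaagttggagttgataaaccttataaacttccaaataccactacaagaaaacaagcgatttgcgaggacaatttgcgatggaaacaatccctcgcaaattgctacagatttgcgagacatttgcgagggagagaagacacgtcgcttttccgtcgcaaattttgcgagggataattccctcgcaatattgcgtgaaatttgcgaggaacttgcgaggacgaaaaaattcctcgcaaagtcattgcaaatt

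HTA11 and H1.2 had the nearest listed DMRs of the members with an RNA level. That of HTA11, chr3:20209297-20209585, lay 11.6 kb downstream, beyond 3 protein-coding genes, and was listed in *ago4* replicate 1 alone. It is shown whole, with its *Dpn*II site in capitals.
HTA11 DMR: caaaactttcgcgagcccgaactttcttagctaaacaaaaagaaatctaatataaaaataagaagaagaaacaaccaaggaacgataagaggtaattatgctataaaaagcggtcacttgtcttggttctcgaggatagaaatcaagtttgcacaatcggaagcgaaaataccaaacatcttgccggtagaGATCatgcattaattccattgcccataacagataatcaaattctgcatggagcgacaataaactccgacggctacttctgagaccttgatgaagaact
That of H1.2, chr2:13031976-13032597, lay 12.3 kb upstream, also beyond 3 protein-coding genes. It was listed in replicate 2 of *ago4* and replicate 2 of *nrpe1*. Its middle 300 bases, chr2:13032137-13032436, hold 1 of its 2 *Dpn*II sites.
H1.2 DMR: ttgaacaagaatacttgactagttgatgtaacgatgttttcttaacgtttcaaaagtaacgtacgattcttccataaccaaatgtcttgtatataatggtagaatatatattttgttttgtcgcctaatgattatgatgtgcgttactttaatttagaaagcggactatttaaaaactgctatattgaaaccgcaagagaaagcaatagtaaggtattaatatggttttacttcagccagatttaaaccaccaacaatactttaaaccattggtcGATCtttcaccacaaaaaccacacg

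H1.3 had 4 listed DMRs within 50 kb, and 1.07% of genes had at least as many. A pair lay upstream, at chr2:7814085-7814821 and chr2:7814932-7815262, 31.1 and 30.7 kb from the gene, both in *ago4* replicate 1 alone. The DMR at chr2:7875103-7875484, 28.1 kb downstream, was also in *ago4* replicate 1 alone. The fourth, chr2:7887039-7887451, 40.0 kb downstream, was in *ago4* replicate 3 and in *nrpe1* replicates 2 and 3. The DMRs around H1.3 thus did not recur among *ago4* replicates. None of the 4 overlapped an annotated gene.

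The members left had listed DMRs only farther away. The nearest lay 90.0 kb from HTA7, in *nrpe1* replicate 2, 136.4 kb from HTA8, 227.8 kb from HTA6 and 262.4 kb from H1.1. HTA12, without an RNA level, had 2 DMRs within 50 kb, the nearer at 18.8 kb in replicate 2 of *ago4* and of *nrpe1*. As a reference, all 541 had a median length of 408 bp, a GC content of 31.3% and 1 *Dpn*II site, and 64.1% held a site. Of the cytosines of the HTA9, HTA11 and H1.2 DMRs, 68.0%, 66.4% and 71.5% were in the CHH context. In the 4 DMRs within 50 kb of H1.3 the values were 82.4%, 73.6%, 88.2% and 83.3%, in the order given above. The 7 DMRs near members thus lay on both sides of the median of all 541, which was 74.1%.

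**Figure D3:**
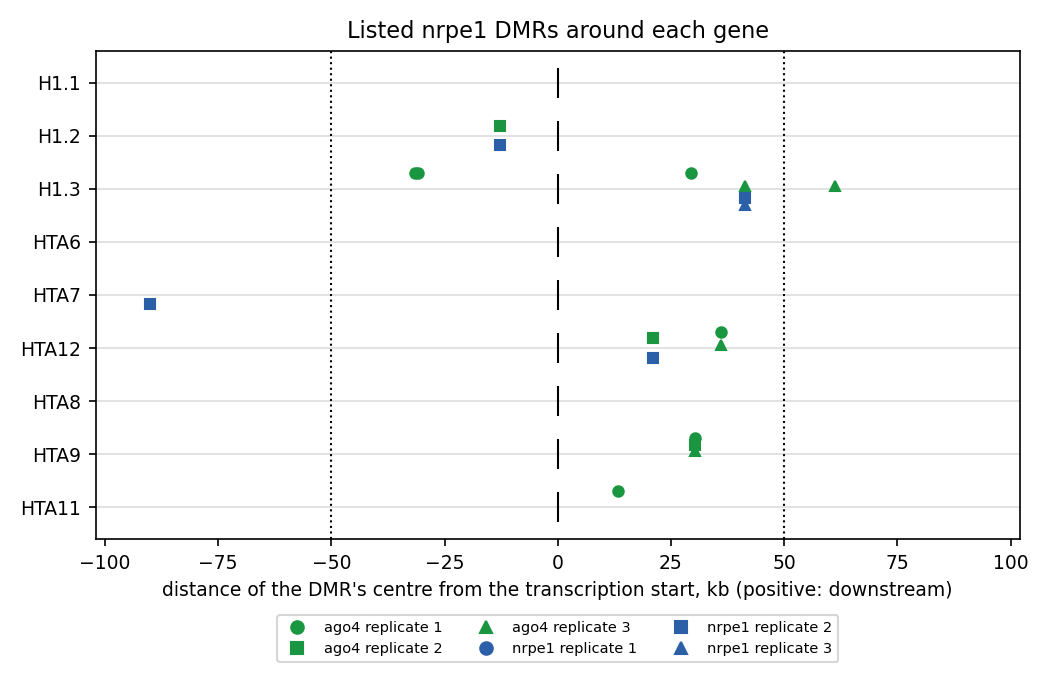
Each row is 1 of the 9 genes and each point a listed DMR, placed by the distance of its centre from the start of transcription in kb, with downstream to the right. Green points are *ago4* lists and blue points *nrpe1* lists, with shapes for replicates, and dotted lines mark 50 kb. The DMR of HTA9 carries all 3 *ago4* points and no blue one, while H1.1, HTA6 and HTA8 have none within 100 kb.

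The question for the lists was whether *ago4* and *nrpe1* differ in the share of DMRs near the members, and their values overlapped. In *ago4*, 5 of 215, 2 of 265 and 2 of 207 listed DMRs of replicates 1, 2 and 3 lay within 50 kb of a member, or 2.33% (Wilson 95% interval 0.997 to 5.33), 0.755% (0.207 to 2.71) and 0.966% (0.265 to 3.45). In *nrpe1* the numbers were 0 of 50, 2 of 176 and 1 of 65, or 0% (0 to 7.13), 1.14% (0.312 to 4.05) and 1.54% (0.272 to 8.21). These intervals cover counting error only. The mean was 1.35% ± 0.852 (SD, n = 3) in *ago4* and 0.892% ± 0.798 (SD, n = 3) in *nrpe1*. The difference of 0.457 percentage points was higher in *ago4* in 1 of 3 pairs of replicates (p = 1, two-sided exact sign-flip permutation test). The pairing follows the paired test of the study's methods, but same-numbered libraries did not all deviate together, and without pairing the same difference had p = 0.6 (two-sided exact permutation test over the 6 lists). With 3 pairs this exact test cannot go below p = 0.25. Without replicate 1, whose *ago4* list holds 3 of the DMRs of H1.3, the difference turned to -0.48 percentage points. Without the chromosome 1 members, and so without the DMR of HTA9, it was 0.0154.

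**Figure D4:**
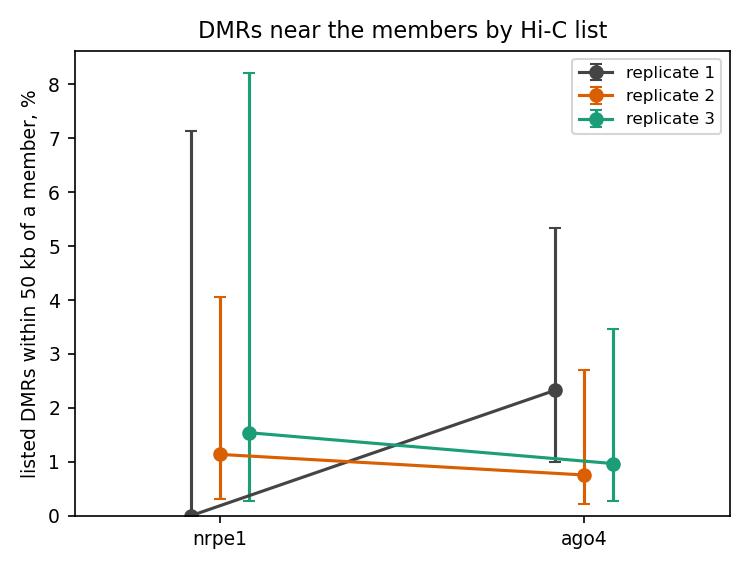
Points give the percent of the DMRs of each Hi-C list that lay within 50 kb of a member, with Wilson 95% intervals as bars and lines joining lists with the same replicate number. In replicate 1 the value went from 0% in *nrpe1* to 2.33% in *ago4*, and in replicates 2 and 3 it was lower in *ago4*. The bars overlap.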

How the data were processed

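RNA values were mean log2 CPM, 1 per gene, deposited by the authors, who mapped reads to TAIR10 with TopHat2 and ran edgeR on *ago4* and Col-0 (3 biological replicates). The table also holds the fold change and unadjusted p-value of the authors' own comparison, which were not used, so *ago4* is not compared with Col-0. Library depths are not given in the sources used here. Of the summed CPM, 39.3% fell in genes, 57.4% in reads without a unique alignment, 2.22% in no feature and 1.02% in ambiguous reads. The rows of no gene were left out here, but CPM values were not rescaled to the reads in genes. Hi-C lists came from Bowtie alignments and 250 bp windows, per the study's methods. Their unlabelled columns were not used, and lists of Col-0 are not analysed here. How samples were cultured in relation to each other is not given for Hi-C, so its p-value measures only the spread between these libraries.

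CPM was taken as 2 to the power of the mean log2 CPM, and since edgeR adds a prior count to log2 CPM, as the authors' values carry it, low levels are slightly raised. Gene models, coding lengths and promoters are those of RefSeq TAIR10.1, whose nuclear chromosomes have the TAIR10 lengths. All 9 identifiers matched. Percentiles of log2 CPM are shares of the 16755 table genes with a lower level. Medians and percentiles per kb of coding length use the 16141 protein-coding nuclear genes. DMR and promoter backgrounds use the 16594 nuclear genes of the table. Named genes were the members, the other H2A genes, the extremes of each list, genes overlapping a member and DMRs near one. Members and lists were chosen with earlier results of these data known. The counting step was tested on simulated data and recovered 20 of 20 planted lists. Alternatives varied distance, merging, division, pairing, replicates, filter and length. Python 3.11.15, numpy 2.4.6, pandas 2.3.3, scipy 1.17.1 and matplotlib 3.10.9 were used.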

Additional observations from a re-analysis of the deposited data

How the results depend on the processing

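For the difference between *ago4* and *nrpe1* in listed DMRs near the members, the smallest p the sign-flip test can give is 0.25 with 3 pairs and 0.5 with 2, so that test could make no call under any setting and its p-values say nothing of stability. Leaving out 1 replicate number at a time gave -0.48 to 0.972 percentage points, the negative value without replicate 1 (p = 0.5, exact sign-flip test). Within 100 kb the difference was 0.429, with DMRs of a 250 bp bin merged 0.457, and in numbers of DMRs 2 (p = 0.5, exact sign-flip test). With no replicate block it was 0.457 (p = 0.6, exact permutation test). Same-numbered libraries deviated together by r = 0.16, 0.11 and -0.0048 over the 541 DMRs, so the replicate numbers do not establish a pairing. Within 10 kb no list gave a DMR, so that setting has no value. Chosen after seeing the data, the difference was 0.710 with HTA12 and 0.0154 without the chromosome 1 members. Leaving out the chromosome 2 members, likewise chosen, gave 0.597. It was higher in *ago4* in 3 of 3 pairs (p = 0.25, the smallest this exact sign-flip test can give). Without chromosome 2 no *nrpe1* list held a DMR near a member, and the HTA9 DMR was in every *ago4* list. That DMR alone fixes the sign in all pairs, so no conclusion is drawn from the count of pairs. The share of genes with a DMR near moved with the distance, also chosen after seeing the data: 6.07% at 10 kb and 37.0% at 100 kb for *ago4*, 3.12% and 22.7% for *nrpe1*. The members' median percentile was 91.5, 91.5 with a filter at 0 log2 CPM, 91.6 among protein-coding genes and 95.5 per kb of coding length. Single percentiles shifted by up to 29.9 points, and 17 of 24 ranks were the same under other lengths, the mRNA length added after seeing the data.

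The lists hold 50 to 265 DMRs each, which leaves counting intervals wider than the difference, and 3 replicates bar a call at any list length. The RNA means allow no error on any level.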
